A study of Mus musculus with 12 samples.

Results

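Npas4, its paralogs Npas1, Npas2 and Npas3, and the dimerization partners Arnt and Arnt2 were examined in auditory cortex from acute mouse brain slices. The genes were picked by name, as the rows of the expression files that carry these symbols, and they are 6 of the 20989 gene loci listed in each file. Coronal slices of 350 µm were cut from 4-week-old mice of the strain C57bl6/J, for which the labels give no transgene, and the hemispheres of each slice were parted at the midline. One hemisphere of each of 6 mice stayed in artificial cerebrospinal fluid (aCSF) for 1 h as the control. The other spent 1 h in cocktail aCSF. The cocktail held 50 µM bicuculline methiodide, a blocker of inhibitory GABA-A receptors, with 100 µM norepinephrine, 50 µM carbamoylcholine (a stable analogue of acetylcholine), 100 µM dopamine, 40 µM ascorbic acid and 100 µM serotonin. These were given together, so the effect of 1 component cannot be told apart from that of another. The methods of the study add, after this incubation, a rest of 1 h in plain aCSF for both hemispheres, a step the labels leave out. By these methods the levels are those after the rest and not those at the end of the drug. Poly-A RNA of each of the 12 pieces of cortex was sequenced on its own, and the mouse number in the labels pairs the hemispheres.

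All 6 genes encode transcription factors with a basic helix-loop-helix (bHLH) region, which contacts DNA, followed by PAS domains, through which such proteins pair. NPAS4 is known from neurons, where calcium entry during activity switches its gene on rapidly, and it acts as a dimer with ARNT2 or ARNT on genes that shape inhibitory synapses. NPAS1 and NPAS3 also pair with ARNT proteins and are known from interneurons and from the developing brain, while NPAS2 pairs with ARNTL, the clock protein also called BMAL1. ARNT further serves the hypoxia factors and the dioxin receptor AHR, so it is a partner that many factors share.

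Npas4 lies on the minus strand of chromosome 19 of mm10, from 4984355 to 4989971, with 8 exons in the RefSeq transcript of the files. The paralogs lie on chromosomes 7 (Npas1, 16455721 to 16476780), 1 (Npas2, 39194272 to 39363240) and 12 (Npas3, 53248677 to 54072175). Arnt is on chromosome 3 from 95434390 to 95497239 and Arnt2 on chromosome 7 from 84246275 to 84410038. In GENCODE M21 no exon of another gene overlaps the exons of Npas4, Npas1, Npas2 or Arnt, whereas an antisense gene overlaps exons of Npas3 (1700060O08Rik) and of Arnt2 (Gm30873).

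The 250 bases before the annotated start are shown for Npas4, the gene that rose, and for Arnt, the only other member whose window holds the same motif. The sequences are from RefSeq (GRCm38.p6) and run 5′ to 3′ on the strand of the gene, that of Npas4 at chr19:4989972-4990221 (minus strand) and that of Arnt at chr3:95434140-95434389 (plus strand). Capitals mark TGACGTC on either strand, which is the cAMP response element (CRE, the binding site of CREB) TGACGTCA without its last base, and, near the start, TATATAA, the motif of the TATA box.
Npas4: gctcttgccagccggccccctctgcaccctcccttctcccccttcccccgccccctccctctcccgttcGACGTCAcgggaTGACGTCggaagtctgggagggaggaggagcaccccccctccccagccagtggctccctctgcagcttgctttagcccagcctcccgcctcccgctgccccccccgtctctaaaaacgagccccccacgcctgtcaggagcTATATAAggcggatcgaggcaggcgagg
Arnt: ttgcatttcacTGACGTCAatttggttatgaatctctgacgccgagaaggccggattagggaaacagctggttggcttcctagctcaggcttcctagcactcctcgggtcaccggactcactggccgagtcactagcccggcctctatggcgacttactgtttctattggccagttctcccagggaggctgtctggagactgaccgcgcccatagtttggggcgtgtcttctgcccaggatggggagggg

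The Npas4 window held TGACGTC at 2 places, from -181 to -175 and from -169 to -163 before the start, in opposite orientation, and TATATAA from -28 to -22. Among 32851 RefSeq promoter windows of the same length, 2.78% held TGACGTC and 0.0974% held it at 2 or more places that do not overlap. TATATAA was held by 3.04%, and 14 windows held both motifs. Other forms were searched too. Npas4 held no whole CRE, and no member held TATAAA (12.4% of all windows). The shorter TGACG, found for Npas4 and Arnt, was held by 17.8%, and by 2.74% at 2 or more places apart. The Npas4 window had 68.8% G and C, against a median of 52.4% over all windows. The shares of the forms that Npas4 holds are thus a description and no test of an unusual promoter. The Arnt window held the whole CRE from -239 to -232, where TGACGTC reads on both strands, as 1.55% of all windows did. No window of Npas1, Npas2, Npas3 or Arnt2 held TGACGTC. Of the cores to which bHLH-PAS dimers are known to bind, ACGTG was found for Npas2 and Npas3 (16.6% of all windows), TCGTG for Npas1 and Npas2 (13.3%) and GCGTG for Npas4, Npas2 and Arnt (28.2%). The E-box CACGTG, the CArG box of SRF and the MEF2 site were found in none of the 6 windows. The windows lie directly before the starts of the files except that of Npas3, whose RefSeq start, and so its window, lies 245 bases farther upstream. A match describes letters and does not show that a factor binds there.

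**Figure D1:**
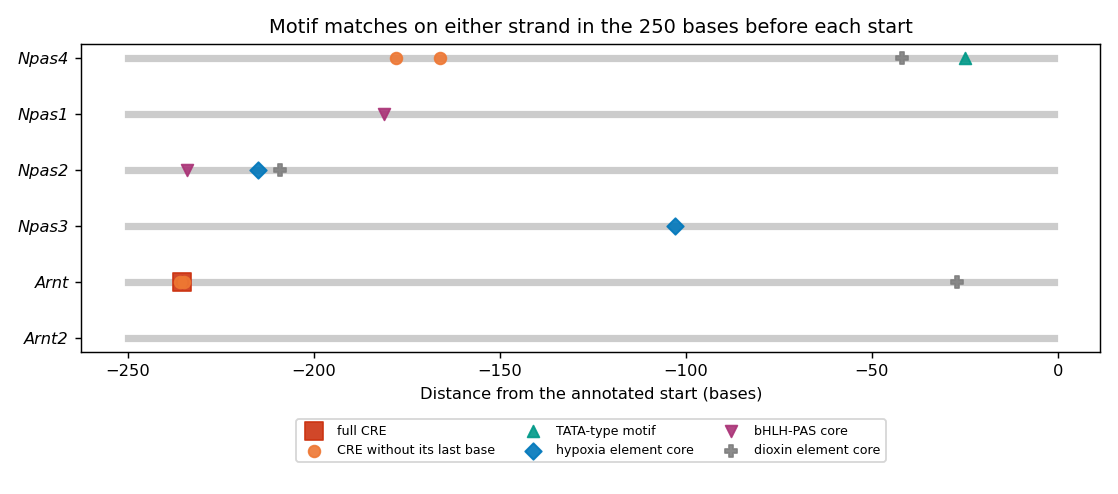
Motif matches on either strand, by distance in bases from the annotated start (x axis), in the windows of 250 bases before the RefSeq starts of the 6 genes (grey bars), with ACGTG drawn as the hypoxia element core, TCGTG as the bHLH-PAS core and GCGTG as the dioxin element core. The CRE-type matches of Npas4 sit side by side near -181 to -163 and its TATA-type match near -28 to -22, Arnt has 1 whole CRE at -239 to -232, and Arnt2 has no match.

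Expression was measured as FPKM, the fragments on a gene scaled to its transcript length and to the fragments on protein coding genes of the library, as the authors estimated it. The reads behind these values, recovered from their confidence intervals, summed to between 10601067 and 19768881 in control and between 13544297 and 17643462 in cocktail libraries. The control library of mouse 1 stood apart. It was the deepest, its FPKM summed to 290155 against 306085 to 321759 in the other 11 libraries, and its median-of-ratios scaling factor was 0.905 against 0.981 to 1.046. Results of the members are therefore also given without both hemispheres of mouse 1. Markers of excitatory neurons (Slc17a7, Tbr1 and 4 others) summed to between 2460 and 2813 FPKM in control libraries. The sums were 44.4 to 68.9 FPKM for 6 striatal markers, 2.89 to 5.03 FPKM for 3 pallidal markers and 1.07 to 1.80 FPKM for 4 choroid plexus markers. Thalamic markers (3 genes) summed to between 9.68 and 13.2 FPKM in control and between 10.5 and 12.7 FPKM in cocktail libraries. Hippocampal markers (4 genes) summed to between 35.1 and 52.9 FPKM in control and between 33.6 and 67.1 FPKM in cocktail libraries. Among them Fibcd1, a marker of CA1, ran from 2.05 to 18.3 FPKM in control and from 3.02 to 24.8 FPKM in cocktail libraries, with within-mouse differences from -1.29 to 2.26 on the log2(FPKM + 1) scale, 3 mice higher and 3 lower. Single abundant genes weigh most in these sums. In the excitatory list the control means were 1260 FPKM for Nrgn and 622 FPKM for Camk2a, against 45.3 FPKM for Tbr1. Foxp2 of the pallidal list had 3.45 FPKM, against 0.540 FPKM for Nkx2-1 and 0.0029 FPKM for Lhx8. Wfs1 of the hippocampal list had 32.9 FPKM, against 11.8 FPKM for Fibcd1 and 1.88 FPKM for Prox1. Expression of Foxp2 and Wfs1 by cells of the cortex itself was not tested. The sums therefore give no shares of tissue. The part of tissue from outside the cortex in the values of the members was not tested. Of 57 marker genes in 11 lists, 50 passed the filter on low values. Of these, 0 were called between the conditions by limma, by voom or without mouse 1. The endothelial marker Cdh5 was the 1 with an unadjusted p under 0.05 (unadjusted p = 0.00528 and adjusted p = 0.197 from limma). Its difference was 0.18 on the log2(FPKM + 1) scale. It was higher in 6 of 6 mice, as were 3.64% of the loci tested. In bulk tissue, fewer cells of a type and less RNA per cell cannot be told apart.

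The cocktail raised Npas4 and none of the other members passed the test. A gene was called at an adjusted p under 0.05 from limma, fitted to log2(FPKM + 1) with the mouse as a block over all 12032 loci whose FPKM averaged 1 or more, the 6 members among them. Of the members, 1 of 6 was called, where 1.5% of all loci tested were called and 1.22% were called higher. The count of members was also 1 without the block (0.731% of loci called) and with voom on the recovered reads (0.981%). Of the other 5 members, 0 had an unadjusted p under 0.05, where 8.05% of all loci tested did. The median difference of the 6 members was 0.030 on the log2(FPKM + 1) scale, against 0.0076 over all loci tested.

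Npas4 had 131 FPKM in the lowest control library, a median of 167 and 180 in the highest. In cocktail libraries it had 265 FPKM at the lowest, a median of 290 and 309 at the highest. The groups did not overlap, which held in this direction for 0.715% of the loci tested. The control mean of 160 ± 19.1 FPKM stood against 290 ± 14.6 FPKM in the cocktail (SD, n = 6 each), which is a ratio of 1.81. The difference on the log2(FPKM + 1) scale was 0.86, with a standard error of 0.064, a 95% interval of 0.72 to 1.00 and an adjusted p of 1.75e-05 from limma. All 6 mice went up, as did 3.64% of the loci tested, and flipping the signs of the 6 differences in an exact permutation test (two-sided) gave p = 0.03125, the smallest that 6 pairs allow. Npas4 was covered by 5911 to 16944 reads per library, so counting error was 1.17% of the level in control libraries.

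The size of the rise differed between mice. The FPKM ratio of cocktail to control was 2.09 in mouse 1, 2.19 in mouse 2, 1.70 in mouse 3, 1.63 in mouse 4, 1.79 in mouse 5 and 1.60 in mouse 6. Mice 1 and 2, with the largest ratios, had the lowest control levels (143 and 131 FPKM), and mouse 6, with the smallest, had the highest control level (180 FPKM). The control level is the denominator of these ratios, so the ratios and the control levels are not independent. The control library of mouse 1 also had the lowest scaling factor, 0.905. A dependence of the rise on the control level was not tested. The spread of Npas4 was 11.9% of the mean between control libraries and 5.04% between cocktail libraries, both above counting error, which was 0.852% in the cocktail. The difference in spread was not tested. Without mouse 1 the difference on the log2(FPKM + 1) scale was 0.82, with an adjusted p of 5.49e-05 from limma, and over the fits that left out each mouse it stayed between 0.81 and 0.90.

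Among the 12032 loci tested, Npas4 ranked 271st by control FPKM, so 97.7% of loci had a lower mean level in control slices, and 120th by cocktail FPKM. Its rise ranked 13th by size on the log2(FPKM + 1) scale and 11th by p. The transcript was thus already abundant in hemispheres that had received no drug, above the mean level of its main partner Arnt2.

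**Figure D2:**
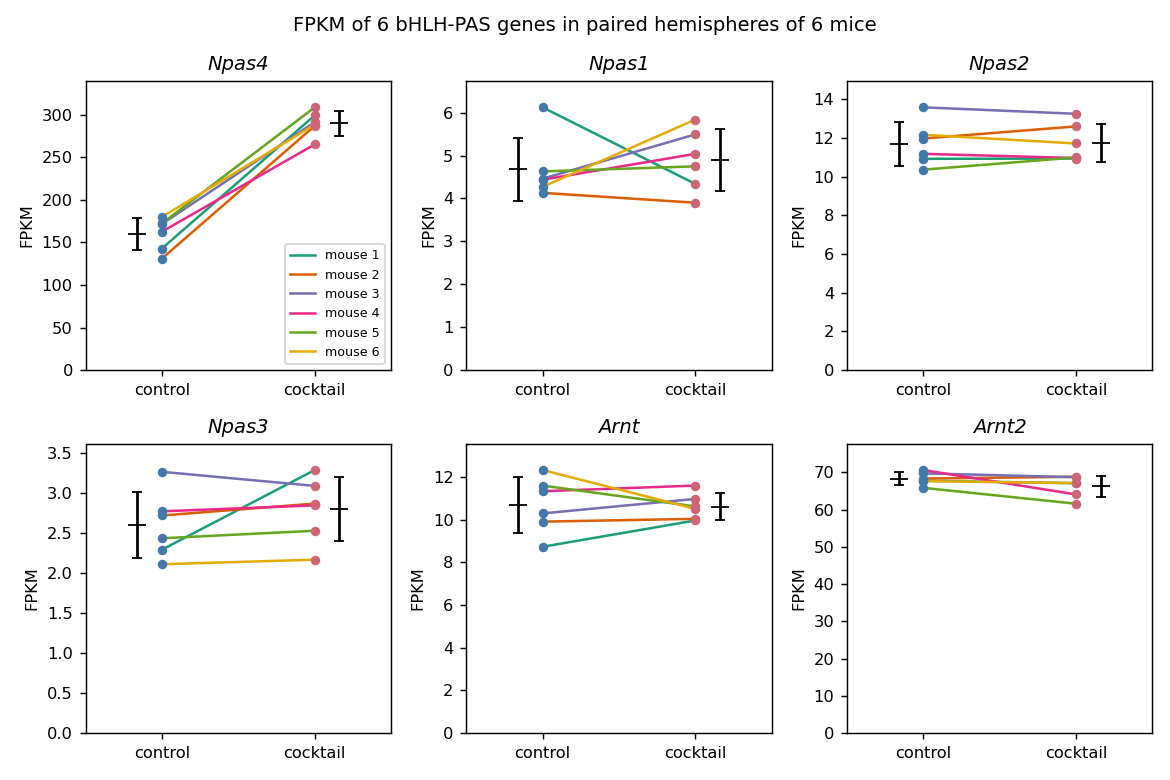
FPKM (y axis, from 0, a scale of its own per gene) of each member in the control and cocktail hemisphere of 6 mice, 1 line per mouse, with the mean and SD of each group beside the points. All 6 lines of Npas4 go up, from 131 to 180 FPKM in control to 265 to 309 FPKM in the cocktail, while the groups of the other members overlap.

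Arnt2, the partner of NPAS4 that prevails in neurons, was the second most abundant member. It had 65.9 FPKM in the lowest control library, a median of 68.1 and 70.7 in the highest, against 61.6, 67.1 and 68.9 FPKM in the cocktail. The groups overlapped, with 5 of 6 mice lower in the cocktail hemisphere by at most 0.14 on the log2(FPKM + 1) scale. The means were 68.4 ± 1.69 and 66.3 ± 2.85 FPKM (SD, n = 6 each). The difference was -0.045 (standard error 0.042, adjusted p = 0.876 from limma), and its 95% interval runs from -0.14 to 0.046. As a ratio on that scale the interval is 0.910 to 1.03, so a rise of the size seen for Npas4 lies outside it. The exact sign-flip permutation test gave p = 0.0625. With a spread of 2.47% between control libraries and 4638 to 9992 reads per library, Arnt2 was the member measured with the smallest spread.

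Arnt, the partner that the hypoxia and dioxin pathways share, had 8.73 FPKM at the lowest, a median of 10.8 and 12.3 at the highest in control libraries, and 9.96, 10.6 and 11.6 FPKM in the cocktail. All the cocktail values fell inside the range of the controls. The values without mouse 1 were -0.039 for Arnt and -0.051 for Arnt2 on the log2(FPKM + 1) scale, with adjusted p of 0.873 and 0.751 from limma. The means were 10.7 ± 1.31 and 10.6 ± 0.611 FPKM (SD, n = 6 each), and the difference on the log2(FPKM + 1) scale was -0.0040 (standard error 0.058, 95% interval -0.13 to 0.12, adjusted p = 0.992 from limma). It was higher in 4 mice and lower in 2, from -0.21 in mouse 6 to 0.17 in mouse 1.

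The ratio of Npas4 to Arnt2 FPKM averaged 2.34 ± 0.292 in the control and 4.38 ± 0.328 in the cocktail group (SD, n = 6 each). It lay between 1.92 and 2.66 in control and between 4.13 and 5.01 in cocktail libraries, so the groups did not overlap. Arnt2 itself had at least 61.6 FPKM (a cocktail library) and at most 70.7 FPKM (a control library). The separation of the ratio thus restates that of Npas4 alone, a separation found for 0.715% of the loci tested. No such share was computed for ratios. Against Arnt and Arnt2 summed, the ratio went from 2.02 ± 0.225 to 3.77 ± 0.273 (SD, n = 6 each). The ratio of Arnt2 to Arnt was 6.47 ± 0.849 in control and 6.26 ± 0.520 in the cocktail (SD, n = 6 each), with overlapping ranges. These are ratios of transcripts per length and say nothing of the amounts of protein.

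Npas1, a repressor known from interneurons, had 4.13 FPKM in the lowest control library, a median of 4.45 and 6.12 in the highest, which was the control library of mouse 1. In the cocktail the values were 3.90, 4.89 and 5.84 FPKM, and the groups overlapped. The means were 4.67 ± 0.729 and 4.89 ± 0.720 FPKM (SD, n = 6 each), with a difference of 0.054 on the log2(FPKM + 1) scale (standard error 0.089, 95% interval -0.14 to 0.25, adjusted p = 0.929 from limma). The mice ranged from -0.42 in mouse 1 to 0.38 in mouse 6, a wider range than for any other member. Without mouse 1 the difference was 0.15 with an adjusted p of 0.573 from limma. Only 88 to 275 reads per library lie behind Npas1, and counting error alone came to 8.79% of the level in control libraries, against a spread of 15.6% between them. The 8 inhibitory neuron markers (Gad1, Sst and others) all had positive differences, with a median of 0.075 on the same scale and 0 called. Their summed level was 488 to 549 FPKM in control and 521 to 566 FPKM in the cocktail. Positive differences were also found for 6 of 6 oligodendrocyte markers (median 0.095), 5 of 6 astrocyte markers (median 0.065) and 4 of 5 endothelial markers (median 0.055), with 0 called. Excitatory neuron and microglia markers were split, with 3 above and 3 below 0 in each list. The median over all loci tested was 0.0076. The part of these cells in the Npas1 values was not tested.

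Npas3, known from neural development, was the least abundant member. It had 2.11 FPKM at the lowest, a median of 2.58 and 3.27 at the highest in control libraries, and 2.17, 2.86 and 3.29 FPKM in the cocktail, with almost the same range. The means were 2.60 ± 0.412 and 2.80 ± 0.401 FPKM (SD, n = 6 each). The difference was 0.078 on the log2(FPKM + 1) scale (standard error 0.066, 95% interval -0.067 to 0.22, adjusted p = 0.850 from limma), higher in 5 of 6 mice. Mouse 1 gave 0.38 and the other mice between -0.061 and 0.057, and without mouse 1 the difference was 0.018 (adjusted p = 0.956 from limma). With 122 to 311 reads per library, counting error was 7.05% of the control level.

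Npas2, the partner of ARNTL in the forebrain clock, had 10.4 FPKM at the lowest, a median of 11.6 and 13.6 at the highest in control libraries, against 10.9, 11.4 and 13.2 FPKM in the cocktail. It was higher in 3 mice and lower in 3. The means were 11.7 ± 1.14 and 11.7 ± 0.981 FPKM (SD, n = 6 each), and the difference of 0.0064 on the log2(FPKM + 1) scale had a standard error of 0.047 and a 95% interval of -0.096 to 0.11 (adjusted p = 0.991 from limma). Mouse 3 had the highest Npas2 level in both hemispheres, 13.6 and 13.2 FPKM. The sign of this difference depended on the setting and turned to -0.0018 with median-of-ratios scaling. Without mouse 1 it was 0.0073 (adjusted p = 0.976 from limma).

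The order of the mean levels was the same in both conditions, Npas4 first, then Arnt2, Npas2, Arnt, Npas1 and Npas3. In control libraries the neighbours Npas4 and Arnt2 differed by 1.21, Arnt2 and Npas2 by 2.45, Arnt and Npas1 by 1.04 and Npas1 and Npas3 by 0.66 on the log2(FPKM + 1) scale. Each of these gaps had the same direction in 6 of 6 libraries, with p = 0.03125 in the exact two-sided sign-flip permutation test, the smallest that 6 libraries allow. The pairs and their direction were set by the means of the same libraries, so this p is no independent support for the order. Npas2 and Arnt did not differ beyond their spread, with a gap of 0.12 ± 0.21 (SD over 6 control libraries), Npas2 higher in 3 of 6 libraries and p = 0.25 in the exact test. In the cocktail the gap between Npas4 and Arnt2 was 2.11, and that between Npas2 and Arnt was 0.13 with Npas2 higher in 5 of 6 libraries (exact permutation test p = 0.09375).

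Whether Npas4 responded differently from its relatives was tested as the difference of the within-mouse differences, in 9 comparisons of Npas4 with another gene. No p was adjusted over the 9 comparisons, which all share the 6 within-mouse differences of Npas4. The genes were chosen with earlier results of these data known. Npas4 rose more than Npas1 by 0.81 ± 0.45, than Npas2 by 0.85 ± 0.16, than Npas3 by 0.78 ± 0.16, than Arnt by 0.86 ± 0.17 and than Arnt2 by 0.90 ± 0.17 on the log2(FPKM + 1) scale (mean ± SD over 6 mice). Each held in 6 of 6 mice, with p = 0.03125 in the exact two-sided sign-flip permutation test. The same test was made against immediate-early genes of other families. Npas4 rose less than Fos, an AP-1 subunit, in 5 of 6 mice, by 0.13 ± 0.15 (exact permutation test p = 0.09375), which did not pass 0.05. Its difference from Arc, a synaptic effector, was 0.041 ± 0.16 (exact permutation test p = 0.5625), and that from Nr4a1, an orphan nuclear receptor, was 0.019 ± 0.16 (exact permutation test p = 0.78125). Npas4 rose more than Bdnf, the neurotrophin gene known as its target, by 0.51 ± 0.26 in 6 of 6 mice (exact permutation test p = 0.03125). A p that misses the threshold does not show that Npas4, Fos, Arc and Nr4a1 rose alike. Mouse 6 gave the smallest within-mouse difference for Npas4 (0.68), Nr4a1 (0.66), Arc (0.49) and Fos (0.57), but not for Bdnf, whose smallest was in mouse 5 (0.021).

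**Figure D3:**
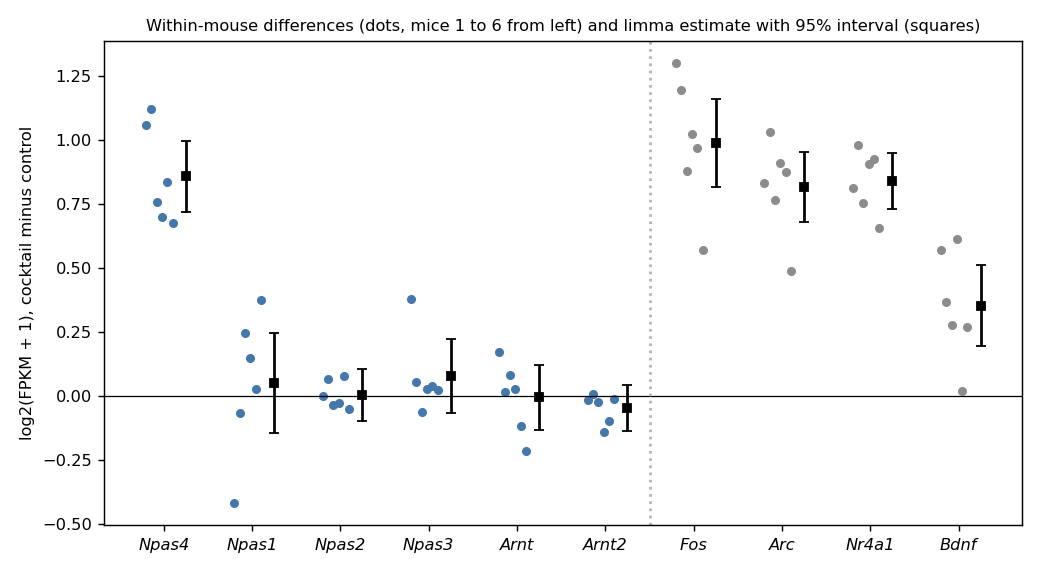
Differences between the cocktail and control hemisphere on the log2(FPKM + 1) scale (y axis) for the 6 members, left of the dotted line, and 4 genes for comparison. Dots are mice 1 to 6 from left to right, and squares with bars are the limma estimate with its 95% interval, which excludes 0 for Npas4, Fos, Arc, Nr4a1 and Bdnf and includes it for the other 5 members.

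The loci whose 6 within-mouse differences lay nearest to those of Npas4 were Dusp6, Fosb, Arl4d, Ier2, Junb, Nr4a1, Arc and Dusp5, in this order. Likeness was measured as the root mean square of the 6 gaps on the log2(FPKM + 1) scale, which was 0.10 for Dusp6, 0.13 for Fosb and 0.18 for Dusp5. Dusp6 and Dusp5 encode phosphatases of ERK-type MAP kinases, Fosb and Junb AP-1 subunits, Arl4d a small GTPase and Ier2 an immediate-early nuclear protein. They were chosen for this likeness, so their rises are a description. Dusp6 went from 85.5 ± 7.28 to 152 ± 12.6 FPKM (SD, n = 6 each), with within-mouse differences between 0.53 and 1.08. The estimates of the 8 loci lay between 0.81 for Dusp5 and 0.95 for Ier2. Their levels were not alike, since Dusp5 had a mean of 21.5 FPKM and Arc of 270.5 FPKM in control slices. The points share the libraries and their scaling.

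**Figure D4:**
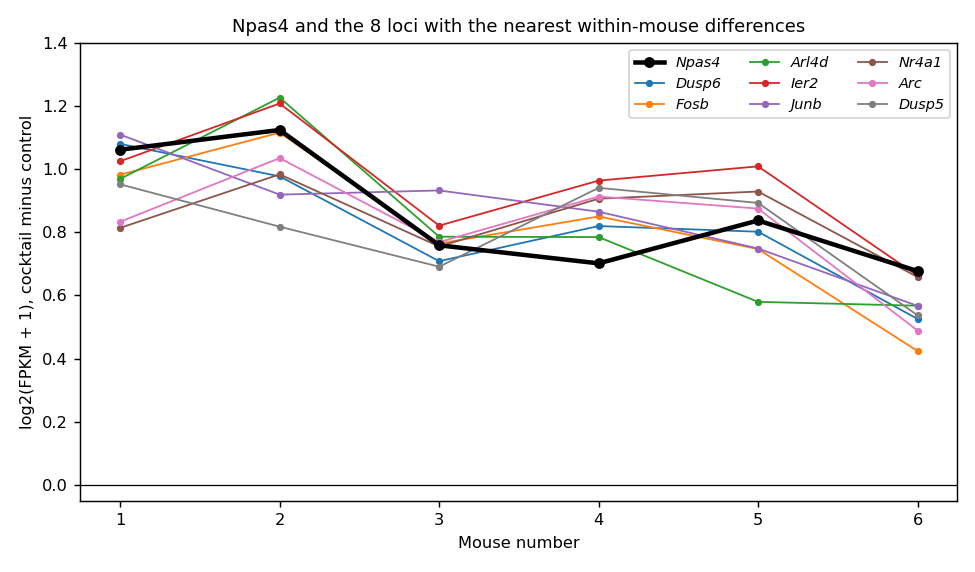
Within-mouse differences on the log2(FPKM + 1) scale (y axis) of Npas4 (thick black line) and the 8 nearest loci, by mouse number (x axis, an order without meaning, so that lines only join the values of 1 gene). Npas4 runs between 0.68 and 1.12 and lies among the other lines in every mouse except mouse 4, where it is 0.70, and mouse 6, where it is 0.68.

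Other bHLH-PAS genes were examined as a list. Of 13 listed, 10 passed the filter on low values, among them Clock and Arntl of the clock, Hif1a and Epas1 of the hypoxia response and the coactivators Ncoa1, Ncoa2 and Ncoa3. Limma called 0 of the 10, voom 0, and 1 had an unadjusted p under 0.05. Over all loci tested these shares were 1.5% for limma and 8.05% for the unadjusted p, so the counts are near those of loci at large. Their median difference was 0.0020 on the log2(FPKM + 1) scale, with 5 above and 5 below 0. The largest was that of Epas1, with 32.9 ± 1.00 FPKM in control and 35.3 ± 1.50 FPKM in the cocktail (SD, n = 6 each), a difference of 0.10 with an adjusted p of 0.527 from limma. Epas1 was higher in 6 of 6 mice, as were 3.64% of the loci tested. Hif3a came next with 0.059 (adjusted p = 0.914 from limma). Arntl, which pairs with NPAS2, had 12.5 ± 0.939 and 12.1 ± 0.890 FPKM (SD, n = 6 each). Sim1, Sim2 and Ahrr were under the filter, each with a mean under 1 FPKM.

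Genes known to act on Npas4 were examined next. The list held the calcium channel genes Cacna1c and Cacna1d, the kinase Camk4, the activators Srf, Mef2a, Mef2c, Mef2d, Creb1 and Crebbp, and the genes known to restrain it, Rest, Nr3c1 and Hdac5. Of the 12, 11 passed the filter and 0 were called by limma, 0 by voom, while 1 had an unadjusted p under 0.05. These counts are near the shares over all loci tested, 1.5% called and 8.05% with such a p. Their median difference was -0.0060 on the log2(FPKM + 1) scale, against 0.0076 over all loci. Srf, whose product binds CArG boxes, had 24.5 ± 1.02 FPKM in control and 27.8 ± 1.24 FPKM in the cocktail (SD, n = 6 each). Its ranges did not overlap, with at most 25.4 FPKM in control and at least 26.1 in the cocktail, which held in this direction for 0.715% of the loci tested. The difference of 0.18 was not called, with an adjusted p of 0.148 from limma. Crebbp, a coactivator of CREB, had the lowest value, -0.089 (adjusted p = 0.695 from limma), and was lower in 6 of 6 mice, which held for 2.66% of all loci tested.

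Of 4 genes known as targets of NPAS4, limma called 3, all higher in the cocktail, where 1.22% of all loci tested were called higher. The 4 were chosen with earlier results of these data known, so the count is a description and no independent test. The median difference of the 4 was 0.44 on the log2(FPKM + 1) scale. Nptx2, a secreted pentraxin of excitatory synapses, had 80.1 ± 16.7 FPKM in control and 127 ± 28.3 FPKM in cocktail libraries (SD, n = 6 each), a difference of 0.66 (standard error 0.058, adjusted p = 6.46e-05 from limma). Its ranges overlapped between 92.4 and 105 FPKM, and without the mouse as a block it was not called (adjusted p = 0.0519 from limma). Plk2, a kinase that weakens overactive synapses, went from 100.0 ± 9.43 to 144 ± 13.5 FPKM (SD, n = 6 each) without overlap (0.715% of the loci tested in this direction), a difference of 0.52 (standard error 0.052, adjusted p = 0.000154 from limma). Bdnf had 13.6 ± 3.00 and 17.7 ± 4.31 FPKM (SD, n = 6 each), a difference of 0.35 (adjusted p = 0.0338 from limma). This call of Bdnf was lost without the block (adjusted p = 0.864 from limma) and without mouse 1, 2, 3, 4 or 6 (adjusted p between 0.0644 and 0.146 from limma). Syt10, a synaptotagmin, had 1.11 ± 0.270 and 1.32 ± 0.198 FPKM (SD, n = 6 each), with as few as 27 reads in a library, and was not called (difference 0.14, adjusted p = 0.631 from limma). These genes also respond to other activity-regulated factors, and the data do not tell which acted on them.

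Targets of the other ARNT dimers were examined in the same way. Of 15 hypoxia target genes, 14 passed the filter, 2 had an unadjusted p under 0.05 (8.05% over all loci tested) and 1 was called higher (1.22% over all loci). The gene called was Slc2a1, a glucose transporter gene, with 63.5 ± 5.67 and 75.9 ± 4.28 FPKM (SD, n = 6 each) and a difference of 0.26 (adjusted p = 0.0144 from limma). That call was lost without the block (adjusted p = 0.0763), without mouse 3 (0.0710), without mouse 4 (0.0852) and with voom (0.110, all from limma). The median of the 14 was 0.022 on the log2(FPKM + 1) scale, with 11 above and 3 below 0. Next to Slc2a1 the highest was P4ha1, a collagen hydroxylase gene, with 0.15 (unadjusted p = 0.0456 and adjusted p = 0.595 from limma), and the lowest was Hk2, a hexokinase gene, with -0.10 (adjusted p = 0.818 from limma). Vegfa, Ldha and Pgk1 had differences of 0.016, 0.016 and 0.028. Of 5 AHR targets only Tiparp and Nqo1 passed the filter. Tiparp, an ADP-ribosyltransferase gene, went from 13.3 ± 1.91 to 24.1 ± 4.06 FPKM (SD, n = 6 each) without overlap (0.715% of the loci tested in this direction), a difference of 0.80 (standard error 0.11, adjusted p = 0.00168 from limma). Nqo1 had a difference of -0.082 (adjusted p = 0.890 from limma), and the gene Cyp1a1, the defining readout of AHR, had a mean of 0.0317 FPKM in control slices. Which factor acted on Tiparp or on Slc2a1 was not tested.

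**Figure D5:**
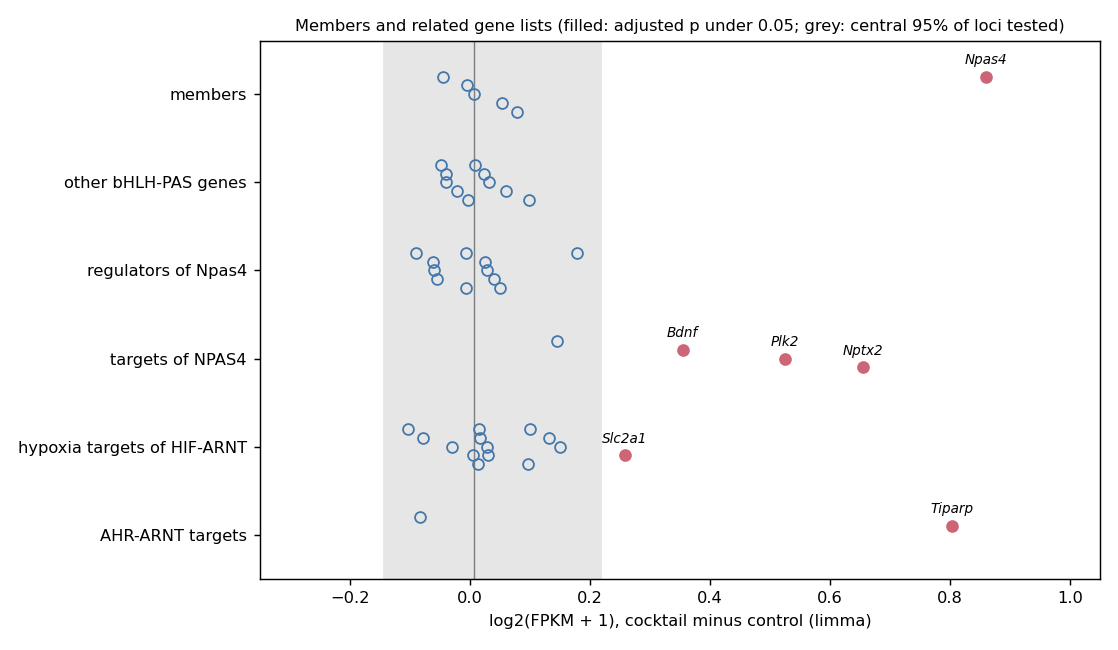
Difference between cocktail and control on the log2(FPKM + 1) scale (x axis, limma) for each tested gene of the members and of 5 related lists (rows). Filled points passed an adjusted p of 0.05, open points did not, and the grey band holds the central 95% of all loci tested, from -0.14 to 0.22. Npas4, Tiparp, Nptx2, Plk2, Bdnf and Slc2a1 lie to the right of the band.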

How the data were processed

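Bulk poly-A RNA sequencing of 6 control and 6 cocktail hemispheres was used. Ribosomal RNA reads were taken out by the authors with BWA 0.6.1, who aligned the rest to mm10 with TopHat 1.4.1 at 1 placement per read, and deposited FPKM values with confidence bounds from Cufflinks 1.3.0, with bias correction. Reads shared by near-identical paralogs are therefore absent. The study names the reads as strand specific, but the strand setting of Cufflinks is not given in the sources used here. A deposited table of the authors' own DESeq2 comparison (mean counts, log2 fold changes, p-values, group means) was not used.

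The scale of analysis was log2(FPKM + 1). Loci with a mean of at least 1 entered limma 3.58.1 (R 4.3.3), fitted to treatment and mouse with a variance trend and Benjamini-Hochberg adjustment over all 12032 loci. Read numbers were recovered as the square of 2 times FPKM over the distance from FPKM to its upper bound. Of 36412 values under 20 reads, 82.8% were whole within 0.05. For some genes the recovered reads did not follow FPKM. Clock had from 7 to 1604 reads per library and Creb1 from 6 to 833. Their lowest FPKM in any library were 6.90 and 4.29. The voom results of such genes rest on unreliable read numbers. Counting errors cover counting only. Deviations from the group mean correlated by 0.216 to 0.406 across loci between hemispheres of the same mouse (6 pairs) and by -0.42 to 0.445 between mice (30 pairs), and the mouse label itself gives the pairing. File starts count from 0 and were raised by 1. Promoter windows were searched on both strands.

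The members, lists, markers and tests were chosen with earlier results of these data known. The genes named are the members, Fos, Arc, Nr4a1 and Bdnf, the called genes of each list (or its 2 largest differences), and the 8 loci nearest to Npas4; other list genes are given as examples of their list. Alternatives were no block, pseudocount 0.1, other filters and scalings, no trend, loci of OK status, voom, and leaving out each mouse.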

Additional observations from a re-analysis of the deposited data

Results flagged for a closer look

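In 48 groups of 6 values (control FPKM, cocktail FPKM and within-mouse difference of each named member, comparison gene and nearest locus), 2 held a value far from the other 5, where chance gives about 2.4. Both concern mouse 1, whose control library stood apart in depth and scaling. Npas1 stood at 6.12 FPKM in the control hemisphere of mouse 1 and at 4.13 to 4.63 FPKM in the other mice, a gap of 0.750 of the whole range, with 275 reads behind the value. The within-mouse difference of Npas3 was 0.38 on the log2(FPKM + 1) scale in mouse 1 while the others lay between -0.061 and 0.057, a gap of 0.735 of the range. The part of the library in these values was not tested.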

How the results depend on the processing

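The rise of Npas4 kept its direction and its call under all 15 alternatives, with differences between 0.81 and 0.90 and an adjusted p of at most 0.00147 from limma. Npas2, Arnt and Arnt2 were called under none of them, and Npas1 and Npas3 under none of the 14 in which they were tested, since both fall under the filter at a mean FPKM of 5. The sign of the differences near 0 was not stable. Npas2 was -0.0018 when libraries were scaled by median-of-ratios, -0.0010 after quantile normalization and -0.045 with voom, and Npas1 was -0.029 with voom. With each mouse left out in turn, Npas1 ranged from -0.010 to 0.15, Npas2 from -0.0079 to 0.018 and Arnt from -0.039 to 0.038. The number of loci called was 180, against 88 without the replicate block and 118 with voom, with 104 called when mouse 4 was left out and 181 when mouse 6 was. The block changed no call of a member, but Bdnf, Nptx2 and Slc2a1 were not called without it. Bdnf was also not called with no filter on low values (adjusted p = 0.124 from limma). The cause was not tested.

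With 5 mice the exact test cannot go below 0.0625, so the tests of response and of order lose their call by construction. Left out in turn, the difference in rise stayed between 0.67 and 0.91 for Npas4 against Npas1, 0.81 and 0.88 against Npas2, 0.72 and 0.81 against Npas3, 0.82 and 0.90 against Arnt, 0.86 and 0.95 against Arnt2 and 0.44 and 0.59 against Bdnf, and crossed 0 against Nr4a1 (-0.027 to 0.064). In control libraries the gap stayed between 1.17 and 1.26 for Npas4 over Arnt2, 2.43 and 2.49 for Arnt2 over Npas2, 0.99 and 1.16 for Arnt over Npas1 and 0.56 and 0.72 for Npas1 over Npas3. In cocktail libraries the same gaps stayed between 2.07 and 2.13, 2.38 and 2.42, 0.95 and 1.03, and 0.54 and 0.69. For Npas1 and Npas3, whose counting errors were the largest of the members, the missing call does not exclude a difference inside the 95% interval.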
